A study of Mus musculus with 9 samples.

Results

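The aminoacyl-tRNA synthetases are the enzymes that load each transfer RNA with its amino acid, and their mRNAs were followed here in MyC-CaP, a mouse prostate cancer cell line, over 24 hours with ASPN (asporin), a protein secreted by fibroblasts of the tumor stroma. This gene family was chosen with earlier results of these data known. Its members were taken by gene symbol, by a pattern that takes the symbols of the synthetases (a single amino acid letter followed by ars, with or without a final 1 or 2, plus Eprs, Farsa, Farsb and Tarsl2). The pattern found 38 of the 15384 genes of the deposited count table. Of these, 21 were read as cytosolic and 17, whose symbols end in 2, as mitochondrial; Tarsl2 also ends in 2, but it is a threonyl-tRNA synthetase-like gene of the cytosol and was counted as cytosolic. Before RNA-Seq, cells had been held 6 to 12 hours in medium free of serum and calcium. Recombinant mouse ASPN was given at 100 ng/mL, and 3 libraries each were made at the start (time 0), at 12 hours and at 24 hours. By their labels the time 0 libraries, too, were treated with ASPN. No library of cells kept for 12 or 24 hours without ASPN was analyzed here, so the effect of ASPN and that of the hours in culture cannot be told apart. The labels number the libraries as biological replicates and the methods describe wells plated in triplicate, so p-values measure the spread between such wells of 1 cell line.

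Most animal cells hold separate sets of synthetases for the cytosol and for the mitochondria, both encoded in the nucleus. Gars and Kars are exceptions, since each encodes both the cytosolic and the mitochondrial enzyme. Several cytosolic synthetases (Eprs, Iars, Lars, Mars, Qars, Rars, Kars and Dars) assemble with the accessory proteins Aimp1, Aimp2 and Eef1e1 into the multisynthetase complex. Transcription of many cytosolic synthetase genes is known to respond to ATF4, the transcription factor that is translated when amino acids run short or the unfolded protein response is active. The mitochondrial enzymes serve the translation of the few proteins that the mitochondrial genome encodes.

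The libraries held 41881191 to 52993821 counts (median 44779129), and all 38 members had counts in each of the 9 libraries. At this depth 3 counts correspond to 0.0566 to 0.0716 CPM, the counts of a gene scaled by library size to a common total. TMM factors, which scale libraries so that most genes do not differ, were between 1.04 and 1.07 at time 0 and 12 hours and between 0.899 and 0.914 at 24 hours. Markers of the labeled epithelial-like cells were mixed: Hoxb13 was at 67.6 to 104 CPM and Krt8 at 24.8 to 42.2 CPM, whereas Epcam had at most 1 count, Cdh1 at most 10 and Krt18 at most 22 in any library. Of 6 fibroblast markers, Col1a2, Col3a1 and Lum have no row in the table and the summed level of the other 3 was 13.0 to 14.1 CPM at time 0 and 9.09 to 10.3 CPM at 24 hours, mostly Pdgfra. The summed endothelial and immune markers were below 1 CPM in every library (at most 0.183 and 0.815 CPM). The part of these markers in the results below was not tested, and in bulk libraries a different mix of cells and a different level per cell cannot be told apart.

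Per kilobase of exon (all exons of a gene merged), cytosolic synthetase mRNAs were mostly more abundant than mitochondrial ones, with overlapping ranges. At time 0 the median level was 29.9 CPM per kb over the 21 cytosolic genes and 3.33 CPM per kb over the 17 mitochondrial genes. Gars, the glycyl-tRNA synthetase, was highest of the cytosolic genes at time 0 (88.2 CPM per kb) and Tarsl2 lowest (3.61 CPM per kb). Among the mitochondrial genes, Lars2, the leucyl-tRNA synthetase of mitochondria, was highest (26.1 CPM per kb) and Mars2, the methionyl-tRNA synthetase, lowest (1.43 CPM per kb). At 24 hours Lars2 reached 119 CPM per kb, beside 116 CPM per kb of Gars. Levels per kb and their order depend on the length used. Merged exons have 11089 bases in Lars2 and 3119 in Gars, whereas the longest protein-coding transcripts have 3894 and 2380. Replicates of 1 time differed little for most members: the median coefficient of variation was 2.99% at time 0, 2.45% at 12 hours and 4.27% at 24 hours, when Lars2 stood apart with 46.3%.

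After 12 hours, no synthetase passed the thresholds of adjusted p (at most 0.05) and of fold change (1.5 or more). None of the 38 members was called, against a background of 1.6% of the 11410 tested genes in either direction (1.5% higher and 0.0964% lower). DESeq2 also called 0, and 4 members had an unadjusted p under 0.05 in edgeR's quasi-likelihood test. Of those, 3 had a p of at most 0.05 after Benjamini-Hochberg adjustment in that test, each with a small positive log2 fold change, which is 7.89% of the members beside 6.85% of all tested genes that passed in that direction (3.47% passed in the other). For Cars, the cysteinyl-tRNA synthetase, it was 0.15 ± 0.04 on the log2 scale (SE, adjusted p = 0.0250). Lars2 had one of 0.14 ± 0.04 (adjusted p = 0.0351). Nars, the asparaginyl-tRNA synthetase, had one of 0.11 ± 0.03 (adjusted p = 0.0271). The log2 fold changes of all 38 members at 12 hours lay between -0.14 and 0.15, and the medians were 0.03 for cytosolic and -0.02 for mitochondrial members, beside -0.0049 for all tested genes. In 6 members all 12-hour libraries lay above all time 0 libraries and in 2 all lay below, where 13.4% and 13.6% of all tested genes did so.

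After 24 hours, the cytosolic synthetases were mostly higher than at time 0, by modest amounts. Of the 21 cytosolic genes, 5 were called higher (Nars, Sars, Qars, Cars and Dars) and 0 lower. Over all 38 members 7 were called higher and 3 lower. The background was 28.8% of the 11444 tested genes, 12% higher and 16.8% lower. By the adjusted p alone 14 cytosolic genes were higher (66.7%, beside 34.4% of all tested genes) and 3 lower (14.3%, beside 36.5%). Their log2 fold changes ran from -0.25 (Wars) to 0.75 (Nars) with a median of 0.27, beside -0.02 for all tested genes. The summed level of the cytosolic genes was 3483 to 3550 CPM at time 0, 3534 to 3639 CPM at 12 hours and 4368 to 4580 CPM at 24 hours, so the 24-hour libraries did not overlap with the earlier ones. As a share of all counts of a library, which uses no TMM factor, the same genes took 0.368% to 0.375% at time 0 and 0.399% to 0.417% at 24 hours. With library totals in place of TMM factors, which put the median of all tested genes at -0.24, the cytosolic median was 0.04 and 0 of the 5 passed the fold threshold, with log2 fold changes of 0.39 to 0.53.

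**Figure D1:**
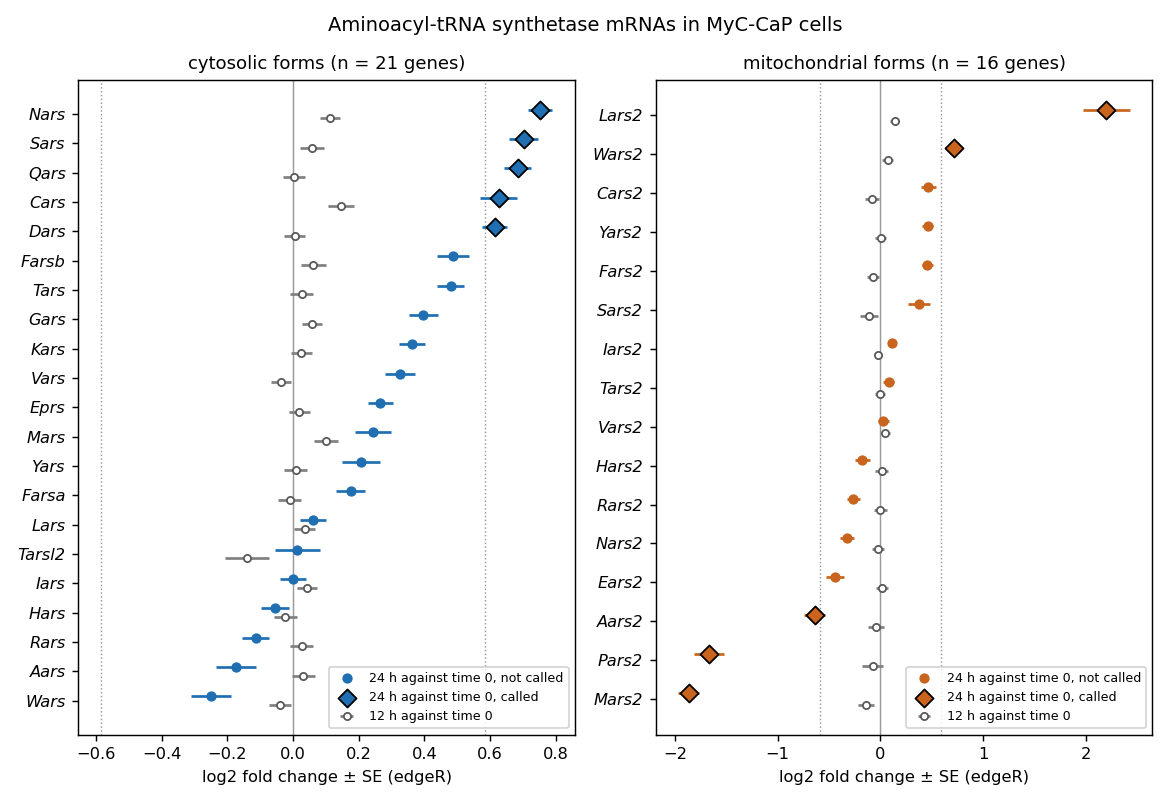
Log2 fold change (horizontal axis, with SE, edgeR) of each synthetase mRNA at 12 hours (open circles) and 24 hours (filled symbols) against time 0, for 21 cytosolic genes on the left and 16 mitochondrial genes on the right; diamonds mark called genes, dotted lines a 1.5-fold change, and the horizontal scales differ. Open circles all lie between -0.14 and 0.15, whereas filled symbols reach 0.75 for Nars, 2.20 for Lars2 and -1.86 for Mars2.

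Nars, which charges the transfer RNA for asparagine, had the largest rise of the cytosolic genes. It was at 239, 238 and 243 CPM at time 0, 254, 258 and 265 CPM at 12 hours and 406, 405 and 399 CPM at 24 hours. The 24-hour libraries lay far above the other 6, and the 12-hour libraries lay slightly above all of time 0. Its log2 fold change at 24 hours was 0.75 ± 0.04 (n = 3 per time, adjusted p = 1.39e-09 from the edgeR quasi-likelihood test after Benjamini-Hochberg adjustment, which also gave the adjusted p of the genes that follow; errors are SE). Sars, the seryl-tRNA synthetase, was at 354, 327 and 333 CPM at time 0, 341, 353 and 359 CPM at 12 hours and 539, 542 and 564 CPM at 24 hours. Its 12-hour libraries overlapped with time 0 and its 24-hour libraries lay above both, with a log2 fold change of 0.70 ± 0.04 (adjusted p = 9.40e-09). Qars, the glutaminyl-tRNA synthetase, a subunit of the multisynthetase complex, had 223, 211 and 210.3 CPM at time 0, 211, 219.7 and 213 CPM at 12 hours and 343, 337 and 349.9 CPM at 24 hours. It rose in the same way, by 0.68 ± 0.04 on the log2 scale (adjusted p = 6.60e-09). Dars, the aspartyl-tRNA synthetase and also a subunit of the complex, was at 107, 108 and 108 CPM at time 0, 105, 109.7 and 109 CPM at 12 hours and 167, 163 and 164 CPM at 24 hours. The replicates of Dars were close together at every time, and the 24-hour rise of 0.61 ± 0.04 (log2, adjusted p = 9.74e-09) lay just past the fold threshold. Offsets for transcript length and GC content brought Dars to 0.48 and below the threshold. Cars was at 71.0, 72.0 and 74.5 CPM at time 0, 77.2, 78.0 and 84.7 CPM at 12 hours and 104, 122 and 109 CPM at 24 hours. Like those of Nars, its libraries of 0, 12 and 24 hours did not overlap. Its log2 fold change at 24 hours was 0.63 ± 0.06 (adjusted p = 3.96e-07), and without 24hr replicate 2, its highest library, it was 0.55 and no longer past the threshold. Exons of Cars share 3.2% of their bases with Gm15580, a pseudogene on the opposite strand.

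**Figure D2:**
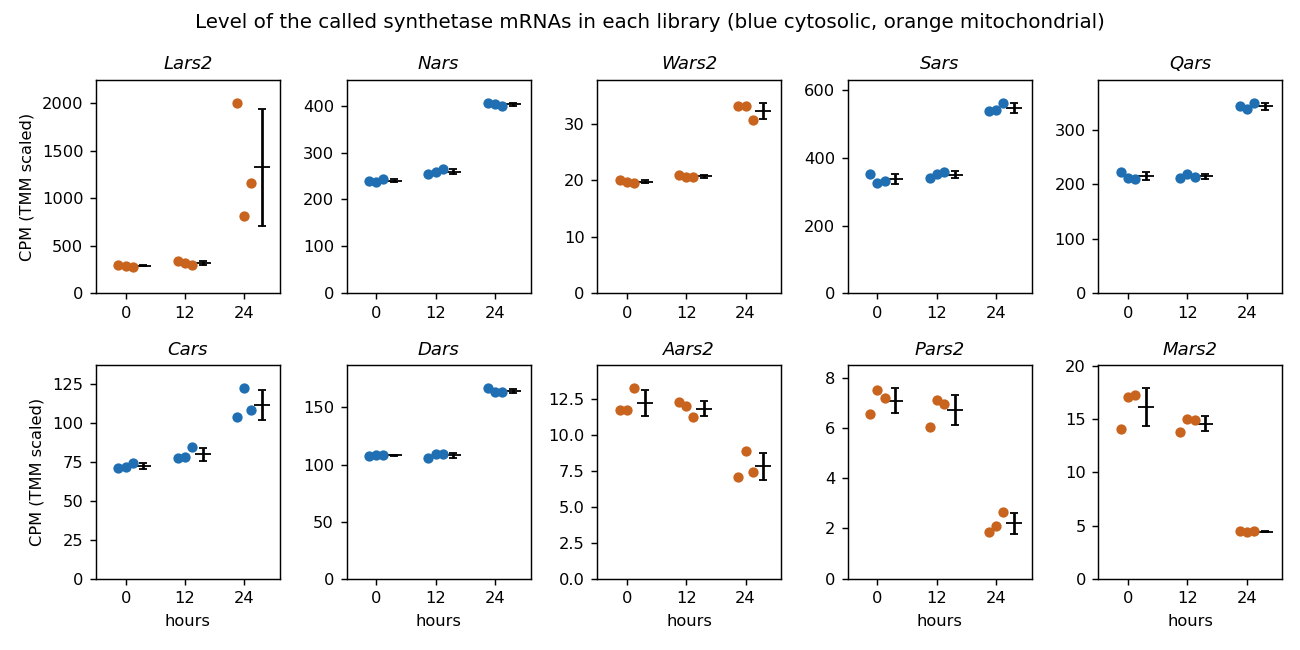
Level in CPM (TMM scaled, vertical axes from 0, each with its own scale) of the 10 called synthetase mRNAs in each library at 0, 12 and 24 hours; points are libraries in the order of their replicate numbers and bars are mean ± SD (n = 3). In all 10 panels the 24-hour libraries lie apart from those of time 0, and in the Lars2 panel they spread from 814 to 2004 CPM.

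The remaining cytosolic genes differed by less than 1.5-fold, apart from Vars with length and GC offsets. Farsb, the beta subunit of the phenylalanyl-tRNA synthetase, was at 48.7, 49.2 and 49.2 CPM at time 0, 49.9, 51.0 and 52.3 CPM at 12 hours and 65.1, 67.4 and 72.8 CPM at 24 hours, a log2 fold change of 0.49 ± 0.05 (adjusted p = 1.21e-06). Its partner subunit, Farsa, had a smaller log2 fold change of 0.18 ± 0.04 (adjusted p = 0.00271), and with library totals one of -0.05. Exons of Farsb share 9.47% of their bases with Sgpp2 on the opposite strand, and whether counting used the strand is not given in the sources used here. Gars, the enzyme of both compartments for glycine, was at 274, 272 and 279 CPM at time 0, 279.8, 285 and 291 CPM at 12 hours and 346, 382 and 355 CPM at 24 hours, which gave 0.40 ± 0.04 (log2, adjusted p = 2.66e-06). Kars, its counterpart for lysine, was at 300.0, 287 and 289 CPM at time 0, 292, 301 and 295 CPM at 12 hours and 368, 378 and 376 CPM at 24 hours, which gave 0.36 ± 0.04 (log2, adjusted p = 1.87e-06). In both genes the 24-hour libraries lay above all others. Tars, Vars, Eprs, Mars and Yars were also higher by the adjusted p, with log2 fold changes of 0.48, 0.33, 0.27, 0.24 and 0.21, the last of which was -0.02 with library totals. With length and GC offsets Vars was at 0.71 and called higher. Eprs encodes the joint enzyme for glutamate and proline.

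Wars and Aars had the lowest log2 fold changes of the cytosolic genes. Wars, the tryptophanyl-tRNA synthetase, was at 102, 101 and 105 CPM at time 0, 101, 98.8 and 99.6 CPM at 12 hours and 78.1, 95.5 and 85.3 CPM at 24 hours, a log2 fold change of -0.25 ± 0.06 (adjusted p = 0.00250). Aars, the alanyl-tRNA synthetase, was at 168, 173 and 183 CPM at time 0, 176, 180.1 and 178 CPM at 12 hours and 140.3, 169.6 and 152 CPM at 24 hours, a log2 fold change of -0.18 ± 0.06 (adjusted p = 0.0200). The 24-hour libraries of Wars lay below all others, whereas 24hr replicate 2 of Aars overlapped with time 0. For Aars the direction turned to 0.34 with offsets for length and GC content, and 14.3% of its exon bases are shared with Exosc6 on the same strand. Rars was the third cytosolic gene with an adjusted p of 0.05 or less and a negative log2 fold change (-0.11 ± 0.04, adjusted p = 0.0240), and Lars, Tarsl2, Iars and Hars had values between -0.05 and 0.06 that did not pass. Library totals turned Lars and Tarsl2 to -0.16 and -0.21, and length and GC offsets put Iars at 0.15. A pseudogene, Gm4849, matches 1656 bases of Iars at 96.0% identity, so reads could be split between them. The 8 synthetases of the multisynthetase complex and the 13 other cytosolic genes had medians of 0.25 and 0.33, with 2 and 3 genes called higher. Of the 21 cytosolic genes, 16 had their lowest 24-hour level in 24hr replicate 1, and 13 their highest in replicate 2. The same order was not counted over all tested genes, so it cannot be told from a shift of whole libraries.

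After 24 hours the log2 fold changes of the mitochondrial synthetases ran from -1.86 to 2.20, a wider range than that of the cytosolic genes, whereas the share of them that was called was close to that of all tested genes. Of the 17 genes, 2 were called higher (Lars2 and Wars2), 3 were called lower (Mars2, Pars2 and Aars2) and 12 were not called. The 11.8% higher and 17.6% lower stand beside 12% and 16.8% of all tested genes. By the adjusted p alone 7 were higher and 7 lower, or 41.2% each way beside 34.4% and 36.5% of all tested genes, and the median log2 fold change was 0.03. With library totals the median was -0.19, Wars2 was at 0.49 and not called, and Ears2 was called lower at -0.66. Over both forms 21 members had all 24-hour libraries above those of time 0 and 10 had all below, where 35.6% and 38.3% of all tested genes did so.

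Lars2 had the largest rise of all 38 members. It was at 298, 290.3 and 280.2 CPM at time 0, 333, 320.2 and 298 CPM at 12 hours and 2004, 814 and 1154 CPM at 24 hours. The 3 libraries of 24 hours lay far above the other 6 but spread widely among themselves, with 24hr replicate 1 the highest. The log2 fold change was 2.20 ± 0.23 (a 4.59-fold rise, adjusted p = 1.37e-06), and it was 1.77 without 24hr replicate 1 and 2.45 without 24hr replicate 2. Lars2 made up 39.9% to 42.5% of the summed level of the mitochondrial synthetases at time 0 and 65.1% to 82.3% at 24 hours. The summed level of all 17 genes was 700 to 716 CPM at time 0 and 1251 to 2435 CPM at 24 hours. Without Lars2, the other 16 summed to 402 to 426 CPM at time 0, 406 to 413 CPM at 12 hours and 432 to 437 CPM at 24 hours. No exon base of Lars2 is shared with another gene of the annotation. Similar sequence elsewhere was searched for only with its protein-coding transcripts. The longest of these has 3894 bases, whereas all exons of Lars2 merged have 11089. Whether reads from similar sequence were counted for Lars2 was not tested.

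**Figure D3:**
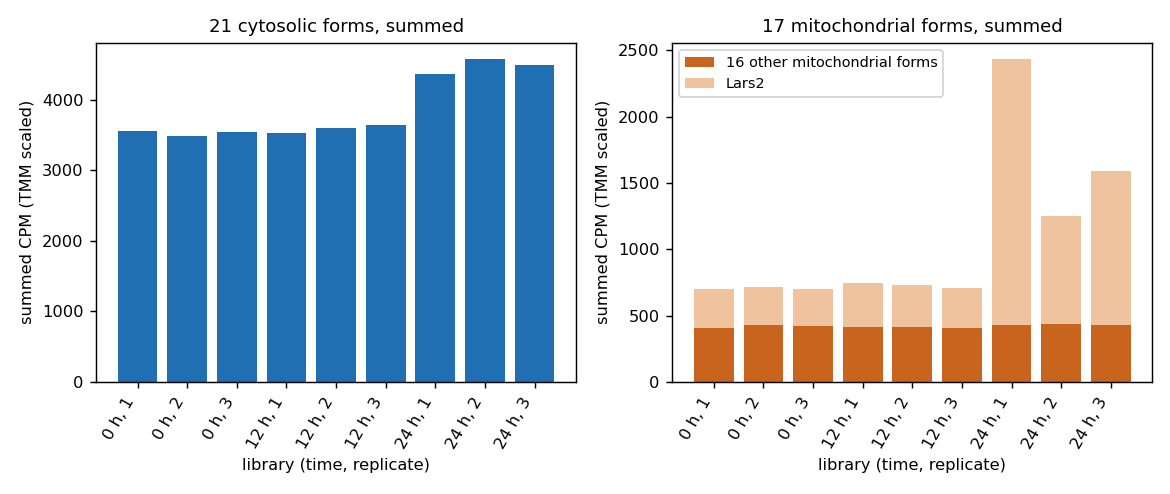
Summed CPM (TMM scaled, vertical axes from 0) of the 21 cytosolic synthetase mRNAs (left) and the 17 mitochondrial ones (right) in each of the 9 libraries; the right bars are split into Lars2 (light) and the 16 others (dark). The dark parts lie between 402 and 437 CPM in all libraries, and the light parts make up 65.1% to 82.3% of the bars at 24 hours.

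Wars2, the mitochondrial tryptophanyl-tRNA synthetase, was at 20.1, 19.7 and 19.6 CPM at time 0, 21.0, 20.6 and 20.5 CPM at 12 hours and 33.2, 33.2 and 30.7 CPM at 24 hours. Its 24-hour libraries lay above all others, with a log2 fold change of 0.72 ± 0.06 (adjusted p = 1.37e-07). The other mitochondrial genes that were higher by the adjusted p alone were Cars2, Yars2, Fars2, Sars2 and Iars2, with log2 fold changes of 0.47, 0.46, 0.46, 0.38 and 0.11. For Iars2 the value was -0.11 with library totals, and 22.9% of its exon bases are shared with Rab3gap2 on the opposite strand.

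Mars2 and Pars2 fell the most of all synthetases. Mars2, which charges the mitochondrial transfer RNA for methionine, was at 14.1, 17.0 and 17.2 CPM at time 0, 13.8, 15.0 and 14.9 CPM at 12 hours and 4.45, 4.35 and 4.45 CPM at 24 hours. The 24-hour libraries were tightly grouped and below all others, with a log2 fold change of -1.86 ± 0.10 (adjusted p = 3.26e-09). Pars2, the mitochondrial prolyl-tRNA synthetase, was at 6.54, 7.51 and 7.20 CPM at time 0, 6.02, 7.12 and 6.95 CPM at 12 hours and 1.86, 2.11 and 2.66 CPM at 24 hours. It fell likewise without overlap, with a log2 fold change of -1.67 ± 0.14 (adjusted p = 1.99e-07). Aars2, the mitochondrial alanyl-tRNA synthetase, was at 11.7, 11.7 and 13.3 CPM at time 0, 12.3, 12.0 and 11.2 CPM at 12 hours and 7.11, 8.88 and 7.45 CPM at 24 hours. Its log2 fold change of -0.64 ± 0.10 (adjusted p = 8.65e-05) was close to the threshold, and it was not called without 0hr replicate 3 (-0.56), without 24hr replicate 1 (-0.58) or with offsets for length and GC content (-0.37).

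Ears2, Nars2 and Rars2 were lower without reaching 1.5-fold. Ears2, for glutamate, was at 17.0, 16.9 and 17.3 CPM at time 0, 16.8, 17.9 and 16.8 CPM at 12 hours and 11.4, 11.8 and 14.4 CPM at 24 hours, a log2 fold change of -0.44 ± 0.09 (adjusted p = 6.34e-04). Nars2, for asparagine, was at 21.2, 24.2 and 22.7 CPM at time 0, 22.3, 22.9 and 21.8 CPM at 12 hours and 18.5, 17.3 and 18.2 CPM at 24 hours, a log2 fold change of -0.33 ± 0.07 (adjusted p = 7.19e-04). Rars2, for arginine, was at 21.9, 21.8 and 21.3 CPM at time 0, 20.0, 23.4 and 21.4 CPM at 12 hours and 17.0, 19.0 and 17.9 CPM at 24 hours, a log2 fold change of -0.26 ± 0.06 (adjusted p = 0.00252). In these 3 genes no 24-hour library overlapped with those of time 0. Hars2 was also lower (-0.17 ± 0.07, adjusted p = 0.0388), while Vars2 and Tars2, at 0.03 and 0.08, did not pass. With library totals both turned direction and passed the adjusted p, at -0.19 (adjusted p = 0.00969) and -0.14 (adjusted p = 0.0427). Hars and Hars2 lie head to head and share 195 exon bases on opposite strands.

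The cytosolic and mitochondrial enzymes for the same amino acid did not always go in the same direction. In 17 pairs for 15 amino acids, without the joint enzyme Eprs, both forms were higher by the adjusted p alone in 5 pairs at 24 hours, both were lower in 2, and they went in opposite directions in 3, for methionine, asparagine and tryptophan. Of all tested genes 70.9% passed the adjusted p at 24 hours, 34.4% higher and 36.5% lower, so genes that pass in opposite directions are common at this threshold. Eprs, at 0.27 ± 0.04 (adjusted p = 3.20e-05), also went in the opposite direction to both of its mitochondrial counterparts, Ears2 (-0.44) and Pars2 (-1.67), which makes 5 of 19 pairs. These counts depended on the scaling. With length and GC offsets 9 of the 17 pairs were both higher, 1 was both lower and 4 were opposite, alanine being the added one, with Aars at 0.34 and Aars2 at -0.37. With library totals 2 were both higher, 5 were both lower and 5 were opposite, among them asparagine and tryptophan but not methionine, and Eprs, at 0.04, did not pass. The pairs that were both lower were 1 with DESeq2, RLE or upper-quartile factors and without 0hr replicate 1 or 24hr replicate 1, and 0 without 0hr replicate 3 or 24hr replicate 3. No pair was called in opposite directions. For methionine, Mars had a log2 fold change of 0.24 ± 0.05 (adjusted p = 0.00134) and Mars2 one of -1.86 ± 0.10. For asparagine, Nars was at 0.75 and Nars2 at -0.33, and for tryptophan the order was turned, with Wars at -0.25 and Wars2 at 0.72. For leucine, Lars was at 0.06 ± 0.04 (adjusted p = 0.187) beside 2.20 ± 0.23 of Lars2. The difference between the forms of a pair was itself not tested.

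**Figure D4:**
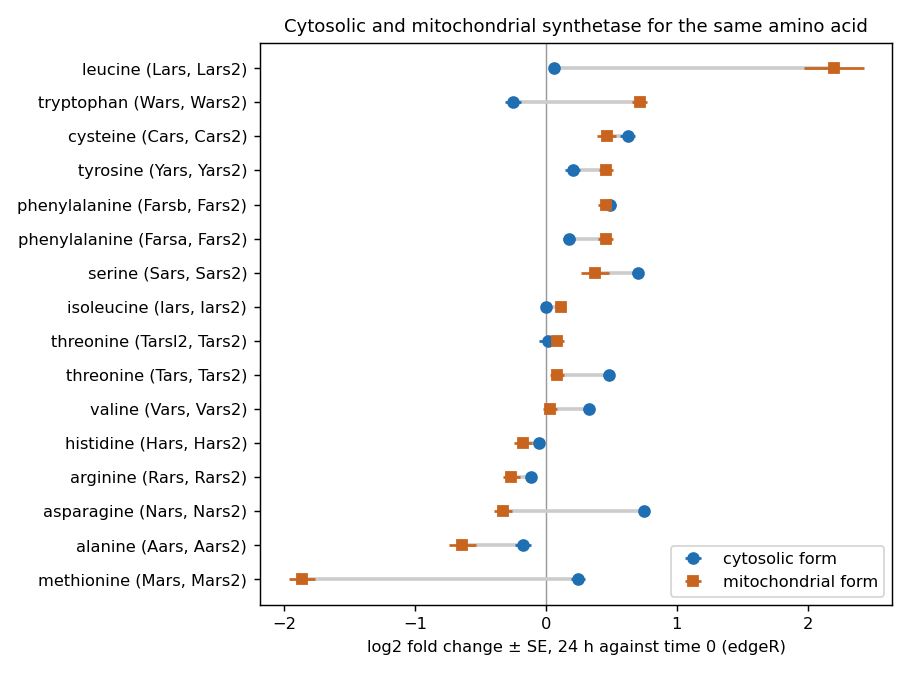
Log2 fold change at 24 hours against time 0 (horizontal axis, with SE, edgeR) of the cytosolic (blue circles) and mitochondrial (orange squares) synthetase for each amino acid, joined by a gray line, in 16 pairs, without Eprs, ordered by the mitochondrial value. The longest lines are those of leucine and methionine, with mitochondrial values of 2.20 and -1.86.

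Of the 10 members called at 24 hours against time 0, 8 were also called against 12 hours. Between 12 and 24 hours 6 members were called higher (Dars, Nars, Qars, Sars, Lars2 and Wars2) and 2 lower (Mars2 and Pars2), against a background of 25.7% of 11394 tested genes (10.4% higher and 15.3% lower). By the adjusted p alone 22 members were higher and 10 lower, or 84.2% in either direction beside 71.3% of all tested genes (35.7% higher and 35.6% lower). The log2 fold change over this interval was 2.08 ± 0.23 for Lars2 and -1.70 ± 0.08 for Mars2. The medians were 0.27 for cytosolic and 0.0032 for mitochondrial members, and 21 members lay above and 10 below their 12-hour libraries without overlap, where 35.5% and 38.5% of all tested genes did so. Cars and Aars2, called against time 0, were at 0.50 and -0.57 and were not called. With library totals 1 member was called higher over this interval (Lars2) and 4 lower (Aars2, Ears2, Mars2 and Pars2), with 0 cytosolic genes called. This comparison shares its 24-hour libraries with the one against time 0.

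Mars2 and Pars2 are also the synthetase genes with the fewest exons, at most 1 and 2 in any protein-coding transcript. Over the whole table the share of genes called lower differed by exon number. This grouping was chosen after the values were seen and is given as a description. At 24 hours 46.8% of 222 tested genes with 1 exon were called lower and 11.7% higher. Among 412 genes with 2 exons 33.0% were called lower, compared with 12.6% of 4351 genes with 5 to 10 exons and 16.6% of 4980 genes with 11 or more. The median log2 fold change was -0.58 for genes of 1 exon and -0.32 for genes of 2 exons. The other 36 members have at least 5 exons, and among them Aars2, with 22, was the only one called lower. At 12 hours 0.909% of genes with 1 exon were called lower (2 of 220), beside 0.0964% of all tested genes. The part of exon number in the fall of Mars2 and Pars2 was not tested.

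**Figure D5:**
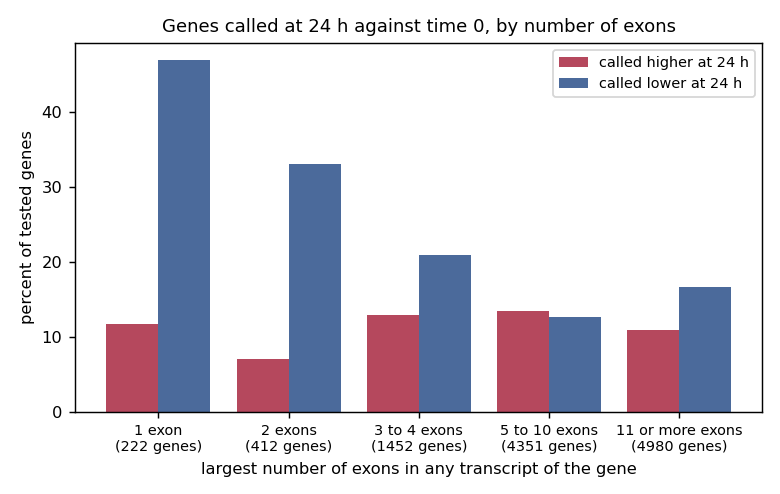
Percent of tested genes called higher (red) and lower (blue) at 24 hours against time 0 (vertical axis from 0) by the largest number of exons in any protein-coding transcript of the gene (horizontal axis). Called-lower genes make up 46.8% of genes with 1 exon, where Mars2 belongs, and 33.0% of those with 2 exons, where Pars2 belongs.

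Atf4 and genes known as its targets were examined as a separate list without synthetases. Of 27 genes in this list 25 were tested at 24 hours, and 12 were called higher and 0 lower, with a median log2 fold change of 0.59, beside 12% higher, 16.8% lower and a median of -0.02 over all tested genes. Atf4 itself was at 233, 261 and 249 CPM at time 0, 267, 279 and 274 CPM at 12 hours and 576, 618 and 574 CPM at 24 hours. All 24-hour libraries lay above the others, with a log2 fold change of 1.26 ± 0.05 (adjusted p = 2.54e-10). With library totals 8 genes of the list were called higher and 1 lower, with a median of 0.37. At 12 hours 2 genes of the list were called higher, Nupr1 and Atf3, where 1.5% of all tested genes were. The called genes with the largest log2 fold changes at 24 hours were Fgf21, a stress hormone at a mean of only 0.846 CPM (2.36 ± 0.46, adjusted p = 4.07e-04), Nupr1, a stress-induced nuclear protein (2.00 ± 0.07, adjusted p = 7.99e-11), and Atf3, a further transcription factor of the same family (1.99 ± 0.10, adjusted p = 1.10e-09). Of 4 eIF2alpha kinases, which act upstream of ATF4, 2 were called lower (16.8% of all tested genes were) and 0 higher at the mRNA level: Eif2ak3 (-1.20 ± 0.07, adjusted p = 4.06e-09) and Eif2ak4, the sensor of uncharged transfer RNA (-0.76 ± 0.05, adjusted p = 2.15e-08). With offsets for length and GC content 1 of the 4 was called lower.

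The letters TGATGNAA, the type of site that ATF4 binds with a C/EBP partner, were searched on both strands of RefSeq promoters (GRCm38.p6, 250 bases before to 50 after the start of a gene). Promoters were found for 28 of the 38 members. The letters occurred in 5 of 14 cytosolic promoters (35.7%: Aars, Gars, Iars, Tars and Yars) and in 0 of 14 mitochondrial ones, compared with 4.51% of the 27025 genes with a promoter. Of the 7 members called higher at 24 hours, Nars and Cars had no promoter in the table and were not searched, and the letters occurred in 0 of the other 5 (Dars, Qars, Sars, Lars2 and Wars2). The 3 occurrences that lie before the start are printed to show the site within its neighboring bases, with the motif in capitals, in the direction of transcription.
Aars (chr8:111033704-111033763, plus strand): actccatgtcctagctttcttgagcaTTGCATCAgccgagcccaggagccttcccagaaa
Gars (chr6:55037945-55038000, plus strand): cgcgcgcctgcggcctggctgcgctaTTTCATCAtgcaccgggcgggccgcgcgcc
Tars (chr15:11399659-11399699, minus strand): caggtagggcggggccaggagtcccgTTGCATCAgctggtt
In these 3 genes the motif reads on the strand opposite to transcription, and its first printed base lies at positions -112 (Aars), -30 (Gars) and -15 (Tars) from the start. Of the 5 genes with the letters, Gars, Tars and Yars had log2 fold changes at 24 hours of 0.40, 0.48 and 0.21, each below the fold threshold. Iars was at -0.00069 and Aars at -0.18. A match of letters is a description of the sequence and not a measurement of binding.

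Other genes of transfer RNA biology were called in both directions at 24 hours, and their counts stand beside 12% of all tested genes called higher, 16.8% called lower and 34.4% higher by the adjusted p alone. Of the 3 accessory proteins of the multisynthetase complex all were higher by the adjusted p, and Aimp1 was called (0.72 ± 0.05, adjusted p = 1.30e-08). Aimp1 was at 111, 104 and 101 CPM at time 0 and 168, 174 and 177 CPM at 24 hours. Eef1e1 and Aimp2 had log2 fold changes of 0.52 ± 0.05 and 0.47 ± 0.05 (adjusted p = 1.56e-06 and 8.04e-07), below the fold threshold. Aimp1 was not called with library totals or with length and GC offsets. Of 4 genes of mitochondrial transfer RNA amidation and formylation 0 were called, with a median of -0.28. Of 4 genes that edit mischarged transfer RNA, 1 was called lower, the D-aminoacyl-tRNA deacylase Dtd2 (-0.71 ± 0.08, adjusted p = 2.93e-06). In the selenocysteine pathway 3 of 7 were called lower and 0 higher: Sephs2 (-0.80 ± 0.05), which makes selenophosphate, Secisbp2 (-0.62 ± 0.07), which binds the insertion element of selenoprotein mRNAs, and Sephs1 (-0.60 ± 0.05), a paralog of Sephs2. Of these 7 genes 1 was called lower with length and GC offsets, and 2 with upper-quartile factors, without any 1 of the time 0 libraries or without 24hr replicate 3.

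Among 27 tested genes of transfer RNA processing, splicing and export, 4 were called higher and 4 lower (14.8% each, beside 12% and 16.8% of all tested genes), with a median of -0.05. Among the called genes were Rpp38 (-0.85 ± 0.12), a subunit of ribonuclease P, and Rtraf (0.76 ± 0.04), of the ligase complex. Of 21 genes of RNA polymerase III and its factors 1 was called higher and 6 lower, with a median of -0.19, led by Polr3e (-0.95 ± 0.05), Gtf3c4 (-0.82 ± 0.06) and Gtf3c1 (-0.81 ± 0.05). Of 41 tested genes of transfer RNA modification 2 were called higher and 4 lower, with a median of 0.02. Among those called lower were Lcmt2 (-2.17 ± 0.16) and Qtrt2 (-1.11 ± 0.09), a subunit of the enzyme that inserts queuosine. With library totals 0 genes of these 3 lists were called higher, and 6 of processing, 9 of RNA polymerase III and 7 of modification were called lower. Library totals turned the median of the modification genes to -0.20, and length and GC offsets gave 2 higher and 5 lower processing genes. The sign of the processing median was not stable: it was 0.07 with these offsets and 0.07 without 0hr replicate 3, 0.03 with DESeq2, 0.02 with no filter on low counts and 0.00049 without 24hr replicate 3. Of the modification genes 4 were called higher and 3 lower both without 0hr replicate 3 and with upper-quartile factors, and their median was -0.0042 with no filter on low counts. At 12 hours 0 genes of these lists and of the eIF2alpha kinases were called.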

How the data were processed

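RNA-Seq of MyC-CaP cells at 0, 12 and 24 hours with ASPN was used, 9 libraries in 3 groups by the sample labels. The authors prepared TruSeq mRNA libraries, sequenced paired-end reads, aligned them with STAR to the mouse genome (GRCm38.p6) and summed them over genes with featureCounts. The deposited table holds the raw counts of 15384 genes, not normalized. Whether counting used the strand, and how reads that match several genes were treated, are not given in the sources used here. All 9 columns of counts were matched to samples by name, and 0 columns were left out.

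The filter on low counts was filterByExpr, scaling used TMM factors, and pairs of times were tested with edgeR 4.0.16 (R 4.3.3), by the quasi-likelihood test without a block on the 6 libraries of a comparison. Adjustment (Benjamini-Hochberg) was over all tested genes, and a call needed an adjusted p of at most 0.05 with a 1.5-fold change or more. The study used DESeq2 with these thresholds, and DESeq2 1.42.0 was an alternative here. CPM values are TMM scaled over the 9 libraries, apart from the floor of 3 counts used for depth, which is scaled by library totals. Counts of replicates at 1 time differed beyond sampling noise (chi-square per degree of freedom 3.41 to 17.5), so each library was counted as 1. Exons, lengths and GC content came from GENCODE M21, in which 15374 genes were found, and promoters from RefSeq on GRCm38.p6, with 10 members not matched.

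The members, the gene lists (Atf4 and its targets, eIF2alpha kinases and 7 lists of transfer RNA biology) and the markers were chosen with earlier results of these data known, so lists are described by counts and medians without a test. Values per library are given for the 8 highest and 8 lowest members at 24 hours, for Gars and Kars, for members called at 12 hours and for pairs called in opposite directions (none of either kind), and for members not tested or below 1 CPM throughout (none). Of the other lists, Atf4, the accessory proteins and the 3 called genes with the largest changes per list are named; further members named beside them were chosen after their values were seen. Alternatives were DESeq2, RLE and upper-quartile factors, library totals, other filters, all 9 libraries in 1 fit, the replicate block, offsets for length and GC content (loess span 0.3), the adjusted p alone and leaving out each library. The calculations were tested on simulated data. LNCaP and NRG1 libraries were not analysed here, and a few genes that these rules cover are counted but not reported here by name.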

Additional observations from a re-analysis of the deposited data

How the results depend on the processing

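The count of members called was 0 at 12 hours, 10 at 24 hours and 8 from 12 to 24 hours. DESeq2, RLE and upper-quartile factors, the other filters, 1 fit of all libraries and the offsets for length and GC content kept these counts within 1.5 times. By the adjusted p alone the counts were 3, 31 and 32, and those of the other lists were 11, 104 and 103 in place of 2, 40 and 40, where 10.3%, 70.9% and 71.3% of all tested genes passed. With library totals 5 members were called at 24 hours (1 higher, 4 lower) and 5 from 12 to 24 hours (1 higher, 4 lower). That scaling moved the median of all tested genes to -0.24 and -0.22, the cytosolic medians to 0.044 and 0.045 and the mitochondrial medians to -0.19 and -0.22. Its log2 fold changes turned sign for Farsa (-0.046), Iars2 (-0.11), Lars (-0.16), Tars2 (-0.14), Tarsl2 (-0.21), Vars2 (-0.19) and Yars (-0.016). Offsets for length and GC content gave cytosolic medians of -0.0055, 0.37 and 0.34 at 12 hours, at 24 hours and from 12 to 24 hours, and mitochondrial medians of 0.14 and 0.17 in the last 2. Together with the replicate block they gave -0.0052, 0.37 and 0.33, and 0.14 and 0.17. They turned Aars to 0.34 (0.34 with the block) and put Vars past the threshold (0.71). Upper-quartile factors gave a cytosolic median of 0.30 at 24 hours and a mitochondrial median of 0.027 from 12 to 24 hours. Iars, at -0.00069, was at 0.010 with DESeq2, 0.012 with RLE factors, 0.031 with upper-quartile factors and 0.15 with the offsets (0.15 with the block). The cause of these shifts was not tested.

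Leaving out 1 library at a time gave 9 to 10 called members at 24 hours and 8 to 9 from 12 to 24 hours. The cytosolic medians were 0.01 to 0.03 at 12 hours, 0.26 to 0.30 at 24 hours and 0.26 to 0.28 from 12 to 24 hours. The mitochondrial medians were -0.04 to -0.0030 at 12 hours, 0.0044 to 0.069 at 24 hours and -0.023 to 0.051 from 12 to 24 hours. Iars ran from -0.027 to 0.032, turning sign in 5 of these 6 fits, and Tarsl2 from -0.033 to 0.083, turning sign without 0hr replicate 3 and without 24hr replicate 1. The replicate numbers did not pair the libraries (correlation of deviations -0.10 to 0.06), and with the replicate block 0, 10 and 8 members were called, as without it. The alternatives for the other lists were added after the data were seen.

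At this depth 3 counts are at most 0.0716 CPM by library totals, without TMM factors, far below the level of every member. Counting error weighs most on Pars2, at 1.86 to 2.66 CPM at 24 hours, and it covers neither differences between wells nor between cultures.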
